A study of Mus musculus with 18 samples.

Results

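The comparison described here set *Stag1* knockdown (KD) with the SATS reagent against *Stag1* KD with the 5p reagent in mouse embryonic stem cells (mESCs). Its members were the 4 libraries labelled SATS siRNA or 5p siRNA in replicate sets 2 and 3, 2 of each kind, out of 18 samples in the series, and each SATS library was paired with the 5p library of its own set. E14 mESCs, a male line, were grown in serum (FCS) with LIF on gelatin and transfected for 24 h. SATS is an esiRNA, a mixture of short duplexes made enzymatically from one long double-stranded RNA, and it covers the alternative 5′ UTR with which *Stag1* transcripts from the upstream SATS start site begin. 5p is a single synthetic duplex to the coding sequence near the 5′ end. Both were given at the same amount with the same transfection reagent. The other groups of the 2 sets were scrambled siRNA (scr), the SP and 3p siRNA pools to *Stag1*, 1 library of untreated cells (set 2) and 1 library of luciferase siRNA, itself an esiRNA (set 3). Knockdown lowers the RNA of *Stag1* and leaves the gene in place.

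RNA depleted of rRNA was sequenced, and the deposited value of a gene is its read count divided by 1 size factor for the library. The SATS libraries held 42579853 and 45660840 reads on genes and were the deepest of the 12 libraries of sets 2 and 3, whereas the 5p libraries held 32137666 and 34151622. Whole reads could be recovered for 100% of the values, and a value of 3 reads, the smallest level counted as detected, was 1.06 to 1.43 in these 4 libraries. All 10 markers of mESCs on the list used were detected, with a summed value of 50092 to 52052 in SATS and 50127 to 54843 in 5p, and a median log2 difference of −0.16. None of the 10 was called by limma, edgeR or DESeq2, with 2 at an unadjusted p under 0.05 in limma. After a correction of each library for transcript length and GC content, limma called 3 of the 10, with a median of −0.14. The labels do not say that the replicate sets were separate cultures, so p-values measure the spread between these libraries only. In bulk RNA, fewer cells of a type and less RNA per cell cannot be told apart.

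STAG1 and STAG2 are alternative subunits of cohesin, the ring-shaped complex that holds sister chromatids together and folds chromosomes into loops. An siRNA works through its guide strand, which is loaded into an Argonaute protein and leads it to RNA with a full match, which is cut. With a shorter match to guide bases 2 to 8, the seed, Argonaute can lower other RNAs in the way a microRNA does. An esiRNA holds many guides, each at a small share, whereas 5p holds 1 guide.

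In the GENCODE annotation of GRCm38, *Stag1* lies at chr9:100597798-100959375 on the plus strand. The first exon of the annotated transcript that starts at SATS is chr9:100597798-100598109, 312 bases long and 45.65 kb upstream of the canonical start. The 5p site is chr9:100738040-100738058 in exon 4 of the 34 exons of the canonical transcript, and its first whole codon is codon 66 of 1258. It was found in 8 of 17 annotated *Stag1* transcripts and in transcripts of no other gene. The site and the guide that pairs with it are shown because the seed recurs in genes described below. Capitals mark the heptamer that pairs with guide bases 2 to 8 in the site, and these bases themselves in the guide. The guide is written with T for U.
5p site: aggagcaggtcGTGGAAGa
5p guide: tCTTCCACgacctgctcct

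*Stag1* RNA was less reduced with SATS than with 5p. Its normalized value was 947 and 1051 in the SATS libraries of sets 2 and 3 and 441 and 401 in the 5p libraries, against 1876 and 2113 in scr. SATS thus left 50.5% and 49.7% of the scr value of the same set, and 5p left 23.5% and 18.98%. Both SATS libraries lay above both 5p libraries and below every control library, and the SP and 3p pools (365 to 406) lay near 5p. The difference between SATS and 5p was 1.24 on the log2 scale (standard error 0.10, adjusted p = 2.04e-05, limma with the set as a block and Benjamini-Hochberg adjustment over 16490 genes). Every difference below was therefore measured between cells that also differed in *Stag1* level. From the SATS and 5p libraries alone, reagent, target region and *Stag1* level cannot be told apart. The SP and 3p pools, with *Stag1* near 5p, serve below as a reference, and the part of *Stag1* level in the differences was not tested. With the reads of every library thinned to the shallowest one, *Stag1* differed by 1.23 (adjusted p = 2.42e-05, limma) and 979 genes were called, 943 of them among the 1059 described below.

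*Stag2*, which encodes the other STAG subunit of somatic cohesin, differed the same way. It measured 2406 and 4474 with SATS and 1434 and 2092 with 5p, against 1811 and 2895 with scr. In each set the SATS library held the highest *Stag2* value of all 6 libraries and the 5p library the lowest. The difference was 0.92 on the log2 scale (standard error 0.08, adjusted p = 5.93e-05, limma). Against scr, *Stag2* was higher by 0.52 with SATS (adjusted p = 0.0154, limma) and lower with 5p, at −0.40 (adjusted p = 0.0229, limma).

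Of the 23 tested genes of cohesin, its regulators and CTCF, *Stag1* and *Stag2* alone were called, both higher in SATS, and the median of the list was −0.05. The ring subunits *Smc1a*, *Smc3* and *Rad21* gave −0.07, −0.05 and −0.04 (adjusted p of 0.733 to 0.837, limma), and leaving out the SATS library of set 3 turned the sign of all 3. *Esco1*, an acetyltransferase of SMC3, measured 778 and 1028 with SATS and 654 and 742 with 5p, a difference of 0.36 (adjusted p = 0.0523, limma). *Stag3*, the STAG subunit of meiotic cohesin, differed by −0.36 and *Ctcf* by −0.15 (adjusted p = 0.146 and 0.268, limma).

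**Figure D1:**
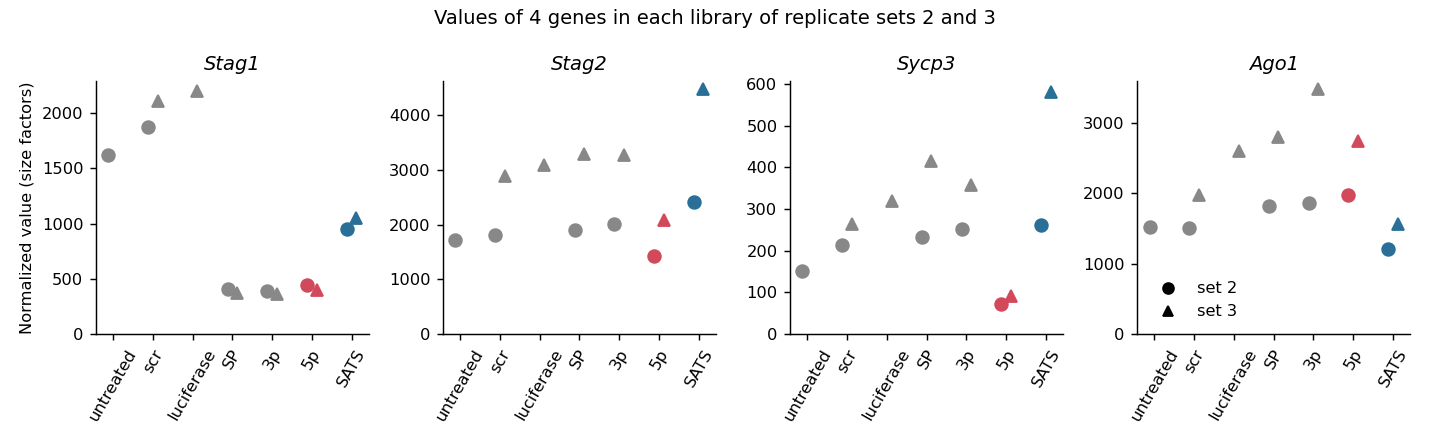
Normalized value (vertical axis, linear, from 0) of *Stag1*, *Stag2*, *Sycp3* and *Ago1* in each of the 12 libraries of replicate sets 2 (circles) and 3 (triangles), with the treatment on the horizontal axis, SATS in blue, 5p in red and the other libraries in grey. SATS lies above 5p for *Stag1*, *Stag2* and *Sycp3* in both sets, and below every other library of its set for *Ago1*.

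Across all 16490 genes tested, 1059 (6.42%) differed between SATS and 5p at an adjusted p under 0.05 in limma with the set as a block. Of these, 678 (4.11%) were higher in SATS and 381 (2.31%) were lower, and all 1059 had the same sign in both sets. Most differences were moderate, with a median log2 difference of 0.49 among the higher genes and −0.47 among the lower ones. At least a 2-fold difference was reached by 29 higher and 31 lower genes. Of these lower genes, *Fzd6*, *Rassf4* and *Napsa* alone averaged 50 or more over the 4 SATS and 5p libraries, so most had low values. The differences were larger in set 3 than in set 2 for 86.3% of the called genes, against 62.7% of all genes tested, and the plot of one set against the other shows the called genes above the diagonal on the right and below it on the left.

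The number of calls rested on the pairing and on set 3. Without the block, 1 gene (*Tmem168*) passed, with 891 genes at an unadjusted p under 0.05, and without a trend of the variance on expression 0 passed in limma, with 3038 at an unadjusted p under 0.05. edgeR and DESeq2 on the recovered reads, with the block, called 1103 and 1206 genes. Without the 5p library of set 3, 141 genes were called, without the SATS library of set 3, 144, and without the scr library of set 2, 705.

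**Figure D2:**
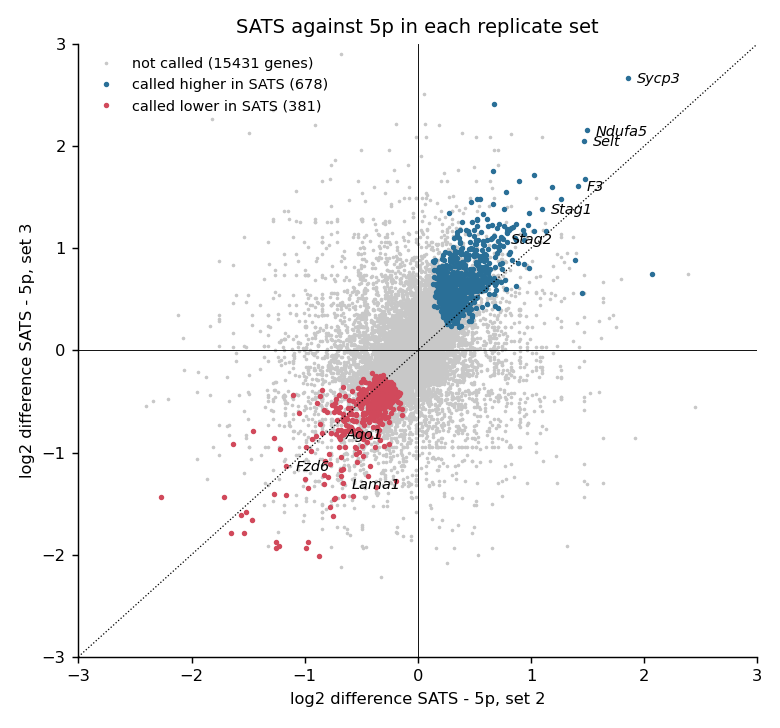
Log2 difference SATS minus 5p in replicate set 2 (horizontal axis) and set 3 (vertical axis) for each of 16490 genes, with genes called higher in SATS in blue (678), called lower in red (381) and the rest in grey. The dotted line marks equal differences, and *Sycp3* at the upper right has the largest difference among the genes named.

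The other siRNA libraries of each set, of which SP and 3p also lower *Stag1*, show on which side of them a difference lay. Measured from the mean of scr, SP and 3p of the same set, 5p lay farther away than SATS for 555 of the 1059 called genes and SATS lay farther for 504. Among the 678 genes higher in SATS, 5p was below all 3 of these libraries in both sets for 431, SATS was above all 3 in both sets for 384, and both held for 160. Among the 381 genes lower in SATS, 5p was above all 3 in both sets for 216, SATS was below all 3 for 249, and both held for 105. Over all 16490 genes tested, 5p was below all 3 in both sets for 1947 and above for 2177. SATS was below for 2408 and above for 2456, and 5p lay farther for 46.5%. Genes called on the difference itself mostly have a reagent outside, so these counts partly follow from the selection. Of the 1059, 44 had neither reagent outside. Against scr alone, limma called 436 genes (2.64%) with SATS and 391 (2.37%) with 5p; these comparisons share the scr libraries.

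The 15 largest rises from 5p to SATS, among called genes whose values averaged 50 or more over the 4 SATS and 5p libraries, were led by *Sycp3*, which encodes a protein of the synaptonemal complex of meiotic chromosomes. *Sycp3* measured 261 and 582 with SATS and 71.6 and 90.7 with 5p, and 213 and 264 with scr. The 5p libraries were the lowest of their sets, and the difference was 2.26 (standard error 0.17, adjusted p = 1.37e-05, limma), or 4.79-fold. *Ndufa5*, a subunit of respiratory complex I, measured 252 and 185 with SATS and 88.8 and 40.7 with 5p, a difference of 1.82 (standard error 0.17, adjusted p = 5.93e-05, limma). Its scr values, 135 and 109, lay between both reagents in each set. *Selt*, a selenoprotein of the endoplasmic reticulum, measured 2813 and 2694 with SATS and 1013 and 648 with 5p, a difference of 1.76 (standard error 0.16, adjusted p = 5.93e-05, limma). With scr it measured 2232 and 2322, so it was 5p that stood apart. *Tmem168*, a membrane protein, gave 502 and 486 with SATS, 179.9 and 151 with 5p and 456 and 464 with scr, the same picture at a difference of 1.58 (adjusted p = 1.14e-05, limma).

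*F3*, tissue factor, which starts coagulation, measured 1474 and 526 with SATS and 552 and 171 with 5p. Against scr, *F3* was higher with SATS (0.83, adjusted p = 0.00795, limma) and lower with 5p (−0.68, adjusted p = 0.00476, limma). *Axl*, a receptor tyrosine kinase, measured 1414 and 418 with SATS and 622 and 137 with 5p, and *Csf1*, the colony-stimulating factor of macrophages, 1839 and 471 against 991 and 148. For these 3 genes set 2 stood well above set 3 in both groups, and the difference held within each set. *Axl* was also lower with the pools than with scr (1028 and 316), at 708 and 189 with SP and 489 and 177 with 3p. Its 5p value lay between the pools in set 2 and below both in set 3, so its fall was not particular to 5p. *Ptgs2*, the inducible cyclooxygenase of prostaglandin synthesis, and *Ier5*, an early response gene, differed by 1.37 and 1.10. In set 2 *Ptgs2* was low with SP and 3p too (114 and 128), against 227 with scr and 95.4 with 5p. In set 3 the pools (83.8 and 93.4) lay nearer to scr (98.0) than to 5p (43.0). The remaining rises were *Snx7*, a sorting nexin (1.37), the protein kinase *Rock1* (1.17), the heterochromatin protein *Bahd1* (1.15), casein kinase 1 alpha (*Csnk1a1*, 1.10), the Hsp90 co-chaperone *Chordc1* (1.05) and *Stag1* itself.

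The 15 largest falls were smaller. *Fzd6*, a receptor for Wnt proteins, measured 102 and 154 with SATS and 230.03 and 339 with 5p, around scr values of 168 and 233. It was below scr with SATS and above scr with 5p, and the difference was −1.15 (standard error 0.11, adjusted p = 9.64e-05, limma), or 2.21-fold lower in SATS. *Lama1*, the laminin chain of the earliest basement membranes, measured 1299.8 and 475 with SATS, 2059 and 1174 with 5p and 1365 and 659 with scr. Here 5p stood above scr (0.71, adjusted p = 0.00694, limma) and SATS lay near it (−0.27, adjusted p = 0.252). *Napsa*, an aspartic protease, was at 34.2 and 34.3 with SATS and 57.7 and 95.8 with 5p, the latter again above scr (29.4 and 35.3). *Csnk1g1*, a casein kinase of the gamma group, showed the other arrangement, with 876 and 684 for SATS below 1249 and 1094 for scr, and 1391 and 1219 for 5p.

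The other falls had differences of −1.13 (*Rassf4*, a Ras-association protein) to −0.76 (*Notum*, a secreted enzyme that inactivates Wnt proteins). They were *Gm8994*, the serpin *Serpinb6c*, *Psd3*, the transcriptional repressor *Msc*, the myosin *Myo1f*, the testis histone *Hist1h2ba*, the riboflavin transporter *Slc52a3*, the Eph receptor *Ephb6* and *Ago1*. Of the 15 falls, *Rassf4*, *Napsa*, *Serpinb6c* and *Slc52a3* averaged under 50 over the 10 libraries of the fit and entered the ranking through their 5p values. All 15 rises stayed called whichever 1 of the 10 libraries was left out, whereas 12 of the 15 falls lost the call without the 5p or the SATS library of set 3, and *Fzd6*, *Lama1* and *Ago1* kept it throughout.

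**Figure D3:**
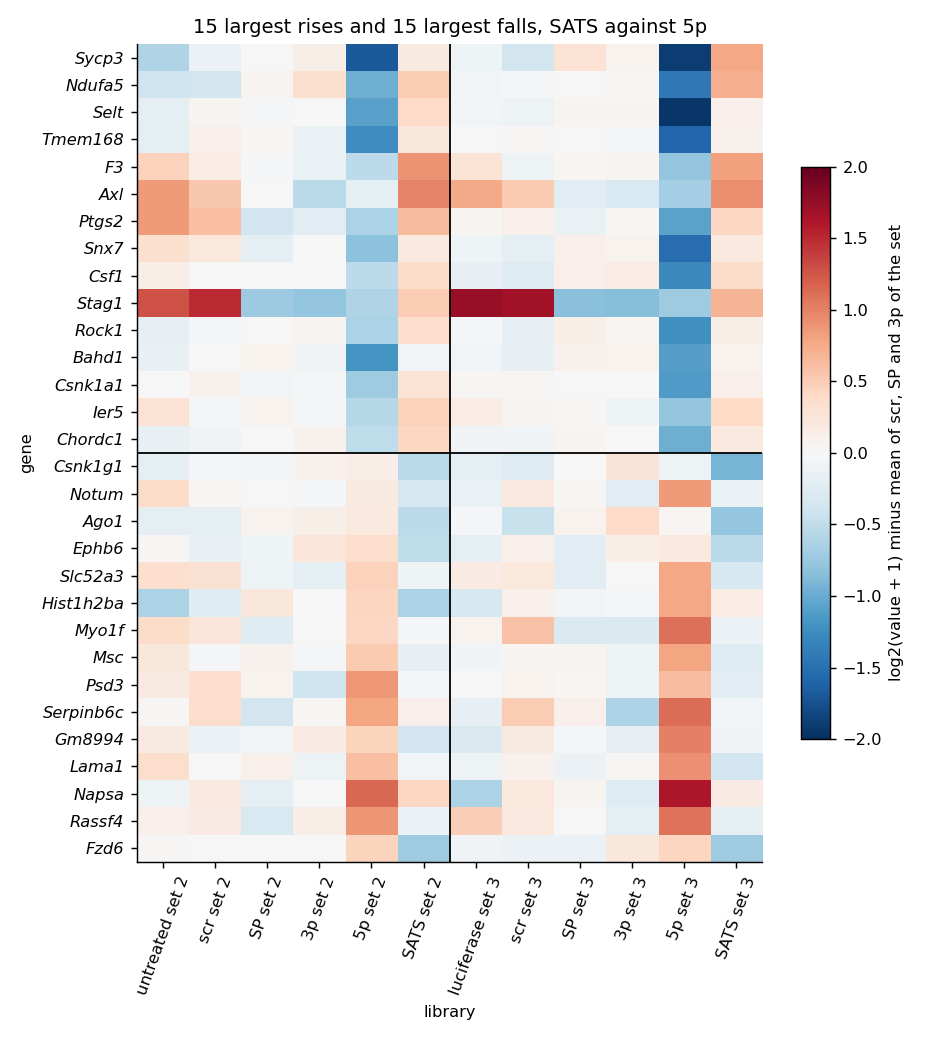
Log2(value + 1) of the 15 genes with the largest rises (above the line) and the 15 with the largest falls (below) in SATS against 5p, in each of the 12 libraries, minus the mean of scr, SP and 3p of the same set (colour, blue below and red above 0). The 5p columns carry the strongest blue in the upper block, and both the 5p and the SATS columns depart from the rest in the lower block.

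The heptamer GTGGAAG, which pairs with bases 2 to 8 of the 5p guide, was searched on the sense strand of the longest annotated 3′ UTR of each gene. It was present in 13.5% of 15127 tested genes with a UTR and in 11 of the 15 largest rises, against 2 of the 15 largest falls. Of these falls, *Hist1h2ba* had no annotated 3′ UTR to search. The first match of 7 genes is shown because these genes carry results of this comparison: the *Sycp3*, *Selt*, *Tmem168*, *Axl*, *Ptgs2* and *Bahd1* genes among the largest rises, and *Stag2*. Each is a 19-base window of GRCm38 cut to line up with the 5p site, with the heptamer in capitals. The windows lie at chr10:88473070-88473088 (*Sycp3*, plus strand), chr3:58591870-58591888 (*Selt*, plus strand), chr6:13582628-13582646 (*Tmem168*, minus strand), chr7:25758194-25758212 (*Axl*, minus strand), chr1:150106531-150106549 (*Ptgs2*, plus strand), chr2:118923778-118923796 (*Bahd1*, plus strand), chrX:42275317-42275335 (*Stag2*, plus strand).
Sycp3: agcttatttaaGTGGAAGa
Selt: aaagggattaaGTGGAAGa
Tmem168: aattatgggatGTGGAAGa
Axl: gggtcctgtcaGTGGAAGa
Ptgs2: aaaatgctggtGTGGAAGg
Bahd1: gggtatacactGTGGAAGa
Stag2: tcgttttctaaGTGGAAGa
Outside the heptamer the windows share few bases with the 5p site, which at 19 bases they match in 9 to 12 positions. In 6 of the 7 windows, *Ptgs2* being the exception, the heptamer is followed by an A, as in the 5p site. Of all 11 rises that hold the heptamer, 7 have a copy followed by an A and 4 (*Ptgs2*, *Csf1*, *Rock1* and *Ier5*) do not, and over all their copies 7 to 15 of 19 bases match the 5p site. *Ndufa5*, *F3* and *Chordc1* hold no copy in this UTR, and neither does *Stag1*, whose 5p site is in the coding sequence. A match of these letters is a description and not a shown site of action.

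Over all genes with a UTR, the share called higher in SATS was larger with more copies. It was 3.53% of the 13090 genes without a copy, 9.74% of the 1735 genes with 1 copy and 13.6% of the 302 genes with at least 2 copies. The share called lower went the other way, from 2.57% to 2.02% and 1.32%. The median log2 difference was −0.01, 0.01 and 0.07 in these groups, with 0.06 in set 2 and 0.10 in set 3 for at least 2 copies. For the genes with at least 2 copies the median was −0.11 for 5p against scr and −0.04 for SATS against scr, which share the scr libraries. These 302 genes also had longer UTRs, with a median of 3642 bases against 993 for genes without a copy.

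With the heptamer followed by an A, a form chosen after the values were seen, 102 of 669 genes (15.2%) were called higher in SATS and 3 (0.448%) lower, with a median of 0.09. The heptamer CTGCTCC, which pairs with bases 2 to 8 of the 5p passenger strand, was searched in the same way. Of the 2721 genes that held it, 17.99% of all genes with a UTR, 3.49% were called higher and 3.71% lower, with a median difference of −0.04 and a median UTR of 2141 bases. Of the 12406 genes without it, 4.65% were called higher and 2.22% lower. Genes without the GTGGAAG heptamer made up 462 of the 672 higher calls among genes with a UTR. No other gene held the whole 5p site. Of 62 tested genes whose closest 19-base window had up to 3 mismatches, 5 were called (8.06%). These were *Rex2*, *Zfp600*, *Gm13242*, *2610305D13Rik* and *Dnaaf5*, named after their values were seen, the first 4 of which are closely related zinc finger genes.

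**Figure D4:**
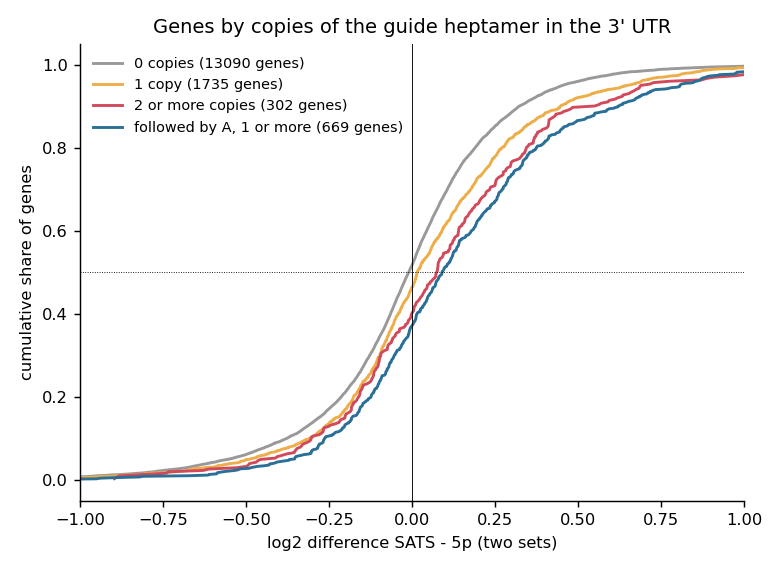
Cumulative share of genes (vertical axis) by log2 difference SATS minus 5p (horizontal axis, shown from −1 to 1) for genes with 0, 1 or at least 2 copies of the heptamer GTGGAAG in the 3′ UTR, and for genes with a copy followed by A. The curves lie farther to the right with more copies, with medians of −0.01, 0.01, 0.07 and 0.09.

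Some genes for the proteins that use small RNAs differed between the reagents. Of 30 genes of the RNA interference and microRNA machinery, 2 were called higher in SATS and 3 lower, with a list median of −0.03 against −0.01 over all genes. The share called was 16.7%. Counts of called members in this and every other list are to be read beside the 6.42% called over all genes tested. *Ago1*, an Argonaute protein, measured 1199.7 and 1557 with SATS and 1978 and 2739 with 5p (difference −0.77, standard error 0.11, adjusted p = 0.00145, limma). SATS held the *Ago1* value lowest among the siRNA libraries of each set, whereas 5p was the highest of set 2 and lay between scr and the pools in set 3. *Ago2*, the Argonaute that cuts its target, was also lower in SATS, at 4207 and 3521 against 5399 and 4632 (−0.38, adjusted p = 0.0368, limma), and so was the helicase *Mov10* (−0.35, adjusted p = 0.0405). *Tsnax*, part of the nuclease that clears passenger strands, was higher in SATS at 723 and 662 against 408 and 289 (1.01, adjusted p = 1.86e-04, limma). With scr it measured 638 and 649.7, close to SATS.

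*Lin28a*, the RNA-binding protein that blocks let-7 maturation, measured 8015 and 8042 with SATS and 5997 and 5629 with 5p (0.47, adjusted p = 0.00641, limma). It was the 1 called member of 15 core pluripotency genes (6.67%, near the 6.42% of all genes tested). After correction for length and GC content 4 of the 15 were called, when 1343 genes were called in all. In the Lin28 and let-7 list 3 of 25 genes were called higher and none lower, among them the DNA-binding protein *Arid3a* (0.60).

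Genes of the interferon response and sensors of double-stranded RNA went both ways, 3 higher and 3 lower of 46, with a median of −0.03. *Ddx58*, which encodes the RNA sensor RIG-I, measured 698 and 468 with SATS and 459 and 288 with 5p (0.65, adjusted p = 0.0014, limma), and its scr values of 619.9 and 481 lay nearer to SATS. *Ifitm1* was higher in SATS (0.45), and *Oas1c* was among the lower genes (−0.97).

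Immediate early genes, which cells switch on within minutes of a stimulus, had more calls in one direction than any other list, with 10 of 31 higher in SATS and none lower, with a median of 0.22 (0.11 in set 2 and 0.27 in set 3). Against scr the median was 0.01 with SATS and −0.26 with 5p. *Ier3* measured 373 and 197 with SATS, 242 and 84.2 with 5p and 288 and 138 with scr (0.92, adjusted p = 0.00218, limma). *Ier5* (1.10), the stress factor *Atf3* (0.58) and *Zfp36*, which destabilizes AU-rich mRNAs (0.50), were higher too. Of the 31 genes, 23 had a positive and 8 a negative difference, and 21 were not called. Among those not called were *Egr1* (−0.00039), *Fos* (−0.13) and *Dusp1* (0.30), named after their values were seen. The call count of this list was 3 without the 5p library of set 3 and 1 without the SATS library of set 3.

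Genes of naive pluripotency, the ground state of mESCs, had a lower median in SATS. Of 32 on the list, 8 were called lower and 3 higher, 26 had a negative difference, and the median was −0.22 (−0.10 in set 2 and −0.30 in set 3). The median against scr was −0.21 with SATS and 0.03 with 5p. Against the mean of scr, SP and 3p it was −0.0099 with SATS and 0.11 with 5p, so the side depended on the reference. *Jam2* measured 935 and 453 with SATS and 1185 and 780.4 with 5p (−0.56, adjusted p = 0.00668, limma), and *Pramel7* was lower at low values (−1.34), measuring 2.17 with SATS and 7.40 with 5p in set 3. On the higher side stood *Rex2* (0.66), which shares sequence with near-identical zinc finger genes so that its reads are uncertain, and *Dppa3*, a maternal factor that protects DNA methylation, at 403 and 295 against 307 and 162 (0.63, adjusted p = 0.0145, limma).

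Members of LIF signalling, named after their values were seen, were among the called genes of the naive list. *Lifr*, the LIF receptor, measured 1439 and 1036 with SATS, 1879 and 1595 with 5p and 1886 and 1557 with scr (−0.50, adjusted p = 0.00266, limma). SP and 3p gave 976 to 1300.2, so that 5p lay near scr and SATS nearer to the pools in each set. *Stat3*, the transcription factor below the receptor, and *Socs3*, its feedback inhibitor, differed by −0.32 and −0.53 (adjusted p = 0.0468 and 0.048, limma). *Nr5a2* (−0.40), *Cdh1*, the epithelial cadherin (−0.36), and *Fgf4* (−0.44) were lower too, and *Pecam1* was higher (0.50). *Nanog* was not called, with 3552 and 2748 for SATS and 3388 and 2610.4 for 5p (0.07, adjusted p = 0.726, limma). Without the SATS or the 5p library of set 3, 0 members of the naive list were called.

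In the Wnt pathway, 3 of 44 genes were called higher and 3 lower. The kinase *Csnk1a1*, part of the complex that marks beta-catenin for destruction, measured 4655 and 4057 with SATS and 2365 and 1733 with 5p (1.10, adjusted p = 5.93e-05, limma), and was at 4085 and 3832 with scr. *Rnf43*, which removes Wnt receptors, and *Fzd2* were higher (0.70 and 0.54), and *Fzd6*, *Fzd4* (−0.60) and *Tcf7l1* (−0.34) were lower. Among 28 genes of FGF signalling and ERK feedback, *Fgf5* was among the higher genes (0.57) and *Spry4* and *Fgf4* were lower (−0.46 and −0.44). Of 20 genes of the Nodal list and 22 of the BMP list, 0 were called by limma, edgeR or DESeq2, with 4 and 2 at an unadjusted p under 0.05 in limma. After correction for length and GC content limma called 2 genes of the Nodal list and 0 of the BMP list.

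Cholesterol synthesis gave 3 higher and 1 lower of 30. *Idi1* (0.44) and *Msmo1* (0.43) were among the higher genes, and *Dhcr7* was lower (−0.36). Of 32 genes of glycolysis and the hypoxia response, 4 were higher, among them the Myc antagonist *Mxi1* (0.73) and the glycolytic regulator *Pfkfb3* (0.55), and 3 were lower, among them *Ero1l*, which forms disulfides in the endoplasmic reticulum (−0.70), and *Pdk1*, which inhibits pyruvate dehydrogenase (−0.50).

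Several lists of small, abundant proteins leaned to SATS with few calls, beside 6.42% called over all genes tested. Of 75 subunits of the respiratory chain, 4 (5.33%) were called higher and none lower (median 0.11), led by *Ndufa5* and *Ndufs4* (594 and 975 with SATS, 437 and 432 with 5p, 0.81). Of 38 proteasome subunits, 4 (10.5%) were higher and none lower (median 0.14, *Psmc6* 0.54 and *Psma4* 0.53). Of 76 mitochondrial ribosomal proteins, 5 (6.58%) were higher and none lower (median 0.07, *Mrpl49* 0.67). Of 83 cytosolic ribosomal proteins, 76 had a positive difference (median 0.17), but the 1 called member, the testis paralog *Rpl10l*, was lower (−0.48). These counts rested on single libraries. Without the SATS library of set 2 the calls in these 4 lists, in the order given, were 20, 8, 13 and 35, and without the SATS library of set 3 they were 1, 0, 1 and 0. For the cytosolic ribosomal proteins the median ran from 0.05 to 0.30 when 1 library was left out. Transcript length moved with the difference over the 10984 genes whose values averaged 50 or more in the 10 libraries of the fit. The median difference was 0.06 for the 2746 genes with the shortest transcripts, with 162 genes called higher and 16 lower, and −0.03 for the 2746 with the longest, with 123 higher and 170 lower. After a correction of each library for length and GC content, the medians of these 4 lists fell to 0.02, 0.05, −0.01 and 0.07, and 1343 genes were called in all, 751 higher and 592 lower.

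Among regulators of chromatin, the heterochromatin proteins *Cbx5* and *Cbx3* were higher in SATS, *Cbx5* at 12888 and 13666 against 9038 and 9102 (0.55, adjusted p = 0.00401, limma) and *Cbx3* by 0.74. The H3K9 methyltransferase *Ehmt1* was lower (−0.37), and the list stood at 3 higher and 1 lower of 30. Of 33 Polycomb genes 3 were higher (*Bmi1* 0.53, *Ezh1* 0.46 and *Kdm2b* 0.41) and 3 lower, *Scmh1* most (−0.42). In DNA methylation *Gadd45b* was higher (0.80) and the dioxygenase *Tet3* lower (−0.43), 2 of 18. Clustered protocadherins, cell-surface proteins whose promoters are chosen with the help of CTCF and cohesin, had the lowest median of all lists, −0.42, in set 2 −0.42 and in set 3 −0.45. Of 39 tested, 35 had a negative difference, against 8397 of 16490 genes, but *Pcdhga3* alone was called, at 26.5 and 18.4 with SATS and 35.8 and 41.6 with 5p. Members of a cluster share constant exons and overlap, so their reads are not separate measurements.

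Lists of other cell types and stages were checked in the same way. Of 7 trophoblast markers tested, 3 were called higher in SATS, *Krt8* (0.80), *Krt7* (0.78) and *Tfap2c* (0.42), and none lower. Of all 7, 4 had a positive and 3 a negative difference, the median was 0.11 (0.42 in set 3 and 0.0033 in set 2), and 1 and 0 were called without the 5p or the SATS library of set 3. *Krt8* measured 18476 and 6996 with SATS and 13777 and 3088 with 5p, and the summed list ran from 7698 to 19954 in SATS, from 3623 to 14964 in 5p and from 4463 to 15355 in scr, SP and 3p. The keratin partner *Krt18* (0.66) was higher too. Of fibroblast markers, *Col1a1* alone of 9 was called, at 2907 and 364 with SATS and 1849 and 155 with 5p (0.94, adjusted p = 0.00445, limma), and in set 2 it made up most of the summed list, which ran from 633 to 3828 in SATS and from 458 to 2822 in 5p. Of the 9, 4 had a positive and 5 a negative difference, with a median of −0.01, and 0 were called without the 5p or the SATS library of set 3. Set 2 was the higher one for both lists in both groups, and the part of such cells in the differences was not tested. Of 20 genes of primitive endoderm, 2 were lower in SATS, *Lama1* and *Plat* (−0.51), with a median of −0.22, and 6 defining markers summed to 194 to 334 in SATS and 253 to 351 in 5p.

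Of 27 genes of the 2-cell embryo, 2 (7.41%, near the 6.42% of all genes tested) were lower in SATS and none higher, with a median of −0.27. Both had low values, *Tdpoz4* at 7.41 and 1.44 with SATS and 23.9 and 6.48 with 5p (−1.59, adjusted p = 0.00989, limma), and *Usp17lb* (−0.96). The list median against scr was 0.04 with SATS and 0.44 with 5p. With 1 library left out, the median of SATS against 5p ran from −0.46 to −0.20, and both calls rested on the libraries of set 3. Of 25 germline genes, *Sycp3*, *Hormad1* (0.87) and *Taf7l* (0.84) were higher and *Rpl10l* lower. Of 22 genes of the primitive streak and mesoderm, 28 of the Hox clusters and 12 structured noncoding RNAs, 0 were called by limma, edgeR or DESeq2, with 4, 4 and 1 at an unadjusted p under 0.05 in limma. Of 22 snoRNA host genes 0 were called by limma or edgeR and 2 by DESeq2, with 6 at an unadjusted p under 0.05 in limma. The precursor rRNA *Rn45s* took 14.7% and 23.5% of reads with SATS and 18.6% and 23.9% with 5p. With scr the share was 16.4% and 21.9%. Since the RNA was depleted of rRNA, these shares were not read as a level of rRNA synthesis. The remaining lists had 1 to 5 calls each and medians of −0.05 to 0.20.

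**Figure D5:**
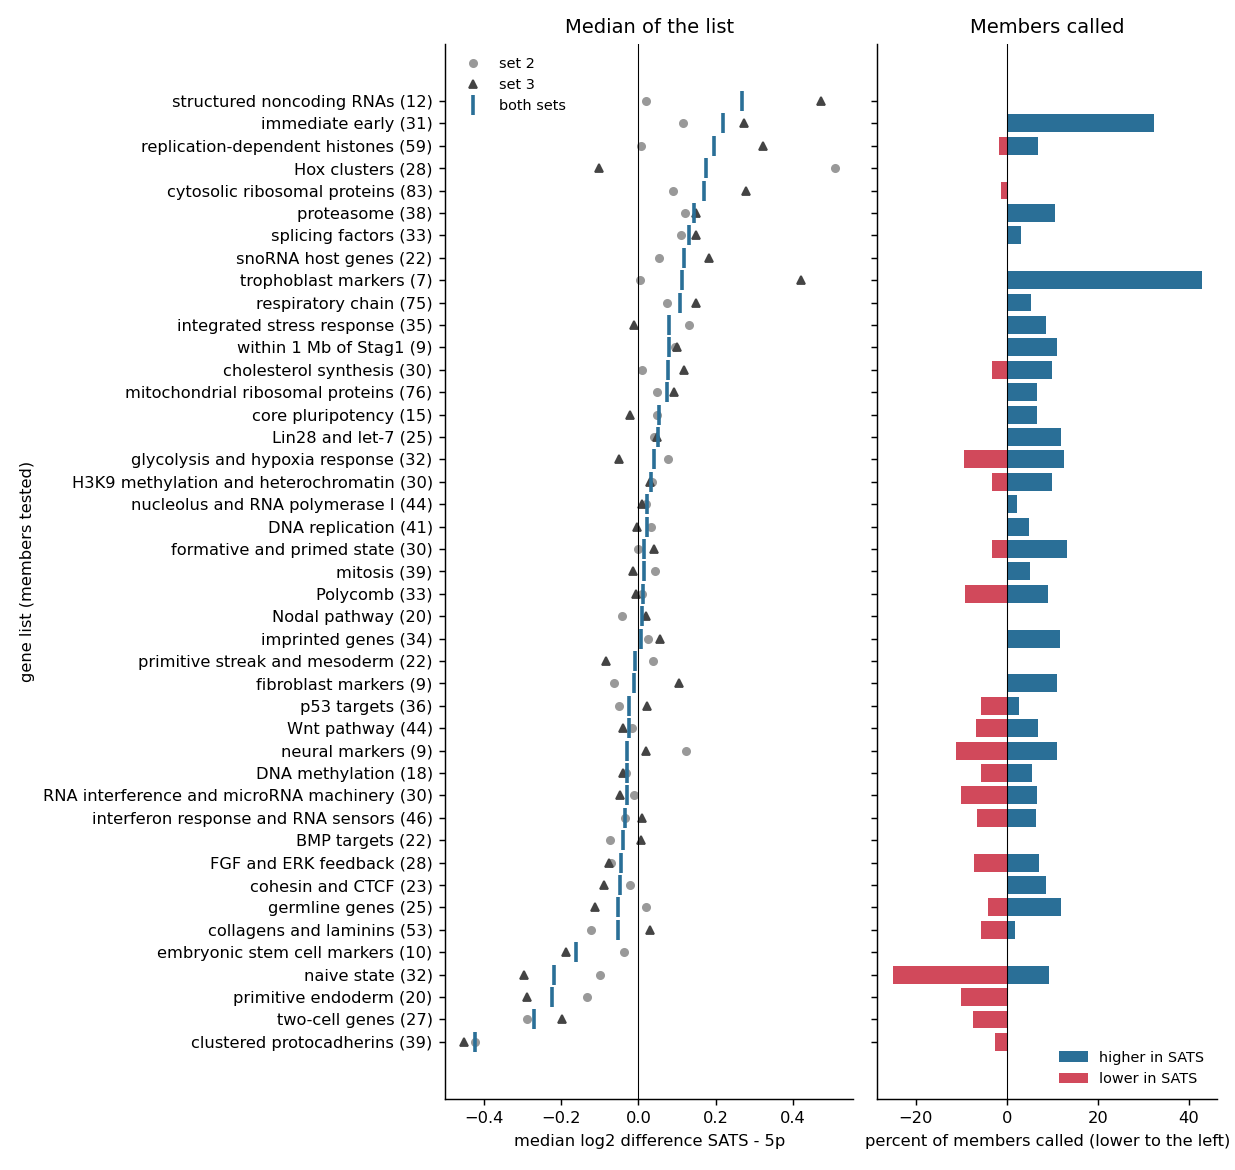
Left, median log2 difference SATS minus 5p of each gene list in set 2 (circles), set 3 (triangles) and both sets (bars). Right, percent of the list's tested members called higher in SATS (blue, to the right) or lower (red, to the left); immediate early genes show 10 of 31 higher and none lower, and naive genes 8 of 32 lower and 3 higher.

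Of 9 tested genes within 1 Mb of *Stag1*, 1 was called. *Slc35g2*, at chr9:100552188-100571090 and 26.7 kb from the SATS start, measured 28.9 and 21.7 with SATS, 15.7 and 8.79 with 5p and 26.0 and 12.3 with scr. SATS was the highest and 5p the lowest of the 6 libraries of each set, at low values, and the difference was 1.02 (standard error 0.23, adjusted p = 0.0193, limma). *Nck1*, an adaptor of receptor kinases 51.7 kb from the start, measured 364 and 390.3 with SATS and 314 and 311 with 5p (0.27, adjusted p = 0.115, limma). *Pccb*, the nearest gene beyond the 3′ end of *Stag1* on this list, differed by 0.10 (adjusted p = 0.664, limma).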

How the data were processed

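RNA-seq of 12 libraries of replicate sets 2 and 3 was used, and 10 of them (scr, SP, 3p, 5p and SATS) entered the fit. What the authors deposited is a normalized signal per gene. It is a featureCounts count of hisat2 alignments to mm10, divided by 1 DESeq2 (1.14.1) size factor for each library. Whether a library was read single- or paired-end is not given in the sources used here. Set 1 holds neither SATS nor 5p and was not used.

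limma 3.58.1 in R 4.3.3 was run on log2(value + 1), with the set as a block and eBayes with trend. The fit covered the 16490 genes whose deposited signal summed to 10 or more over these 10 libraries. A call needed a two-sided adjusted p (Benjamini-Hochberg) under 0.05. With 4 residual degrees of freedom the 5 groups share 1 estimate of the spread. Differences on this scale understate those of low genes. Deviations of same-set libraries from their group means correlated at 0.81 to 0.93 (mean 0.86, 11019 genes), so the sets were taken as pairs, as the comparison's rule asks. On simulated reads for SATS against 5p (16497 genes, 200 changed), the fit recovered 92% of 1.5-fold and 100% of 2-fold changes, with 2.54% of calls false. The changed genes had a mean of at least 50. The simulated reads varied independently with a fixed dispersion, and each change was the same in both sets. The real differences were mostly larger in set 3, so these rates do not carry over to the calls reported here.

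Whole reads (within 0.001 of an integer) were recovered for edgeR 4.0.16 and DESeq2 1.42.0. Intervals and floors from depth cover counting error only, since PCR reads are not independent molecules. Symbols were matched to GENCODE M21 on GRCm38 (17937 directly and 530 through a RefSeq synonym, of 18659), which gave coordinates, lengths and 3′ UTRs. The 5p site was read from the reference by its codon position. Members and gene lists were chosen with earlier results of these data known, and lists carry no test. Named were the cohesin genes, the 15 largest rises and falls among called genes with a mean of at least 50 over the 4 SATS and 5p libraries and the same direction in both sets, up to 4 called members of each list with the largest difference (2 of the highest mean where none was called), *Rn45s* and genes near *Stag1*, and others were named after their values were seen. The proteins, the sequences of the SATS, SP and 3p reagents and the 2i libraries were not analysed here. Some genes are not reported here by name.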

Additional observations from a re-analysis of the deposited data

How the results depend on the processing

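The sets are paired in the main fit, and the replicate block decided the number of calls. Without the block 1 gene was called, 1 higher and 0 lower, and *Stag1* kept its difference of 1.24 with an adjusted p of 0.0656 (limma). Without a variance trend 0 genes were called, 0 higher and 0 lower, with 1.24 and an adjusted p of 0.066 for *Stag1*. With the 4 SATS and 5p libraries alone, 2358 genes were called, 1510 higher and 848 lower, and correction for length and GC content gave 592 lower. The causes were not tested. Leaving out each library in turn gave 141 to 1239 calls, 103 to 806 higher and 26 to 443 lower, and 1.143 to 1.34 for *Stag1*. The lowest counts came without the 5p or the SATS library of set 3 (141 and 144), and without the scr library of set 2 or set 3 they were 705 and 712. The other alternatives (12 libraries, pseudocounts of 0.5 and 5, other filters, rescaling, edgeR, DESeq2 and thinned reads) gave 888 to 1356 calls. With 1 library left out, an arm may rest on a lone library, which is assumed to vary like the other groups.

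Uncalled genes changed sign when a library was left out: *Smc1a* ranged over −0.16 to 0.015, *Smc3* over −0.18 to 0.087, *Rad21* over −0.10 to 0.020, *Rn45s* over −0.43 to 0.10 and *Nanog* over −0.043 to 0.19, and *Nanog* was at −0.032 after correction for length and GC content. None of the 92 called genes named changed sign in any alternative. Each already had the same sign in both sets, so this was largely fixed in advance. Without the block 91 of the 92 were no longer called, and without the variance trend 92 were no longer called. Precision is limited by the 2 libraries in each group.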
